A study of Mus musculus with 14 samples.

Results

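The genes described here are 10 parts of the WNT signalling pathway in mouse embryonic stem cells: the TCF factors Lef1, Tcf7, Tcf7l1 and Tcf7l2, and the feedback genes Axin2, Notum, Znrf3, Rnf43, Nkd1 and Sp5. They were chosen by symbol from the 25131 rows of a gene count table, and all 10 were found there. Counts came from RNA-seq of Rcor2 knockout (KO) cells (2 libraries) and wild-type (WT) cells (2 libraries) of the C57BL/6 strain background. Both were grown on gelatin in serum with leukemia inhibitory factor, the MEK inhibitor PD0325901 and the GSK3 inhibitor CHIR99021. Binding came from 1 peak list of HA-tagged RCOR2, made by chromatin immunoprecipitation (ChIP) with anti-HA resin from cells that express RCOR2-HA (2 libraries, merged in the list), with anti-HA pull-downs from WT and mCherry-expressing cells as negative controls (2 libraries). The labels do not say how the KO was made, how many KO clones were used or whether the replicates were separate cultures, so the p-values below measure the spread between libraries.

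WNT ligands stop a destruction complex of AXIN, APC and the kinase GSK3 from marking β-catenin for degradation, and β-catenin then binds TCF factors on DNA. A GSK3 inhibitor acts inside the cell at the same step, past the receptors. In mouse embryonic stem cells TCF7L1 acts mainly as a repressor, whose targets include pluripotency genes, while LEF1 and TCF7 act mostly as activators with β-catenin. The feedback genes are known targets of the pathway that in turn damp it, by degrading receptors, inactivating ligands or rebuilding the destruction complex. RCOR2, the product of the gene knocked out, belongs to the CoREST corepressors, partners of histone deacetylases and of the demethylase LSD1. Bulk RNA cannot tell fewer cells that make a transcript from less transcript per cell.

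Sequencing gave 2951498 and 1974865 counts in KO, against 2368804 and 1286393 counts in WT. Levels are given as CPM, the counts of a gene per 1000000 counts of the library, after scaling by edgeR's trimmed mean of M-values (TMM). Rcor2 itself was at 54.2 and 53.9 CPM in KO against 81.4 and 81.5 CPM in WT. On the log2 scale KO over WT was -0.59 with an SE of 0.23, which missed the threshold (edgeR, adjusted p = 0.0636), and since the labels do not give the deleted part of the gene, these counts do not check the genotype. Embryonic stem cell markers summed to 1823 to 1886 CPM in KO and 1749 to 1758 CPM in WT, with all 5 detected. Of the markers of other cell types, those of trophoblast summed to 37.3 to 44.5 CPM in KO and 8.43 to 13.0 CPM in WT, with 4 of 4 detected and Cdx2, which is also in the list of WNT targets below, counted 8 and 6 times in KO and 0 and 0 times in WT. Most of that sum was Gata3, at 32.4 and 39.2 CPM in KO against 8.43 and 11.4 CPM in WT, which rose by 1.88 (SE 0.40; edgeR, adjusted p = 0.000316). The other 3 had at most 8 counts in a library. Mesoderm markers summed to 4.49 to 5.76 CPM in KO and 0 to 1.69 CPM in WT, with the defining genes T and Mesp1 at 0 in every library. Most of the KO sum was Kdr, counted 11 and 8 times in KO and 1 and 0 times in WT, a ratio of summed counts per depth of 14.1 (exact 95% counting interval 2.24 to 586), too low to be tested. Markers of feeder fibroblasts (11.5 to 19.3 CPM in KO, 17.3 to 25.9 CPM in WT), primitive endoderm (3.14 to 7.25 CPM in KO, 1.69 to 5.33 CPM in WT) and neural cells (10.4 to 17.8 CPM in KO, 11.4 to 19.0 CPM in WT) overlapped between the groups. Foxa2 and Neurog2 were at 0 in every library. The part of such cells in the results below was not tested.

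Genes of chromosomes 3, 6, 8 and 11 were shifted between KO and WT in their medians. Of the 10 members 8 lie on these chromosomes, 5 on chromosome 11 alone. The median log2 fold change of the tested genes, KO over WT, was 0.92 on chromosome 6, 0.52 on chromosome 8, 0.48 on chromosome 3 and -0.49 on chromosome 11, against -0.02 over all tested genes. Each member is therefore given as measured and also centred on the median of its chromosome. The only 2 tested genes of chromosome Y, named after their values were seen, were both called lower. Eif2s3y was counted 1 and 0 times in KO and 68 and 30 times in WT, and Ddx3y 0 and 1 times in KO and 20 and 20 times in WT. The KO and WT cells thus also differed in transcripts of chromosome Y, on which no member lies. The cause of these shifts was not tested.

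Of the 10 members 7 had enough counts to be tested. Among them 1 rose and 4 fell in KO (edgeR, adjusted p under 0.05), where 10.4% of all 10241 tested genes rose and 9.3% fell. The median log2 fold change was -0.92 over the 7 and -0.02 over all tested genes. The members were chosen with earlier results of these data known, so their shares and median are only a description. With chromosomes centred 0 rose and 2 fell, Lef1 and Notum, where 6.28% of all tested genes rose and 6.67% fell. By DESeq2 Tcf7l1 rose and the same 2 fell, against 6.35% and 4.94% of all tested genes. With no filter on low counts 2 members rose and 4 fell, against 6.18% and 4.81% of the 16711 genes of that fit. In 5 of the 7 the KO and WT libraries did not overlap, as in 56.9% of all tested genes. Tcf7l1 was the one with both KO libraries above both WT libraries, as were 28.1% of all tested genes, and the other 4 had them below, as did 28.8%.

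**Figure D1:**
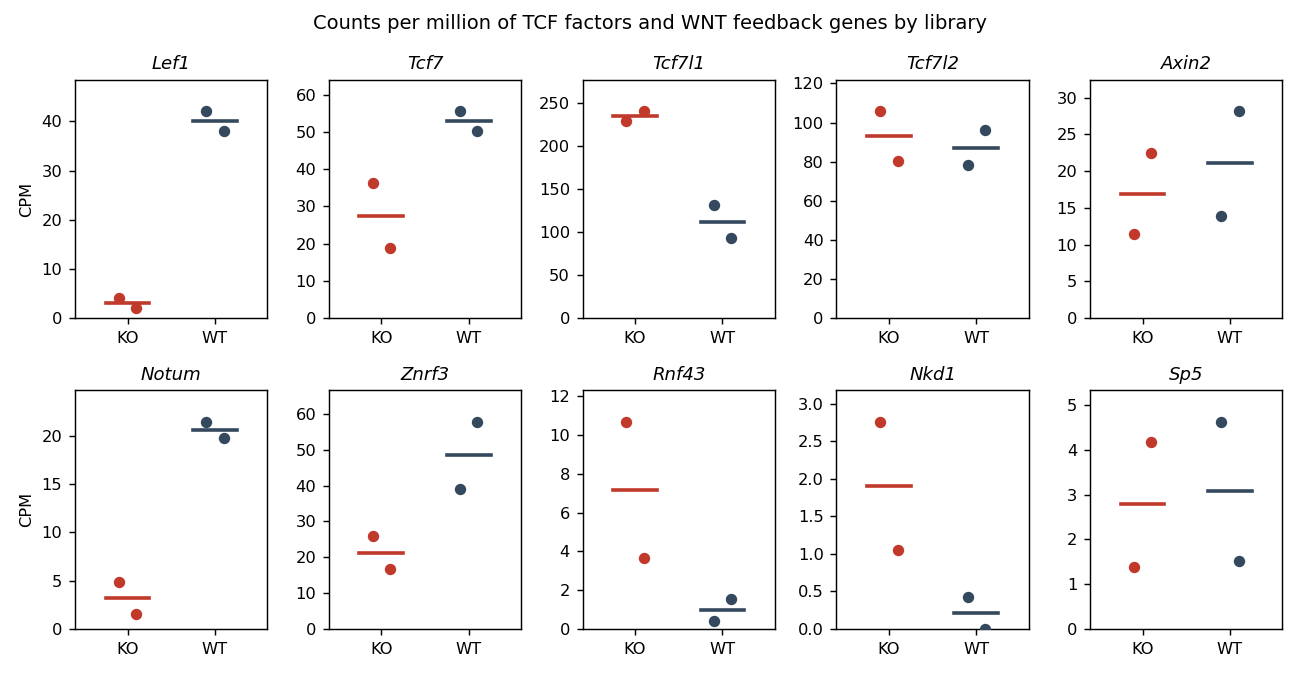
Level in CPM (vertical axis, from 0, scaled per gene) of the 10 genes in the 2 KO and 2 WT libraries, with points for libraries and bars for means. Lef1 and Notum are lower in both KO libraries than in either WT library, Tcf7l1 is higher, and Tcf7l2, Axin2 and Sp5 overlap.

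Lef1 had the largest change among the tested members. Its RefSeq interval, given like those below on GRCm38.p6 from the first to the last base of the gene, is chr3:131110297-131224357. This TCF factor, which binds DNA through an HMG box and activates genes with β-catenin, was counted 12 and 4 times in KO and 100 and 50 times in WT. Its level was 4.14 and 2.09 CPM in KO against 42.2 and 38.1 CPM in WT, so that the groups lay far apart. The WT replicates lay close together, and the KO replicates less so for their low level. It fell by 3.60 on the log2 scale (SE 0.47; edgeR, adjusted p = 2.12e-08), a level 12.1 times as high in WT. It ranked 49 from the lowest fold change among all tested genes. Chromosome 3 was shifted up, with a median of 0.48, while the 31 tested genes within 5 Mb of Lef1 had a median of 0.28. Centred on the chromosome, Lef1 was at -4.07 (SE 0.47; edgeR, adjusted p = 9.42e-10). Leaving out KO replicate 1 gave -4.22 and leaving out KO replicate 2 gave -3.26, and Lef1 was called under every alternative tried (adjusted p from 1.71e-12 to 3.51e-06 by edgeR, DESeq2 or limma-voom). With 1 library of a group left out, here and below, the other library of that group is assumed to vary like those of the other group.

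As measured, none of the 3 tested genes within 500 kb of Lef1 was called lower by edgeR or DESeq2. None of these genes had an unadjusted p under 0.05 for a lower level in that edgeR fit. They were named after their values were seen. Of them, the oligosaccharyltransferase subunit gene Ostc was at 250 and 268 CPM in KO against 156 and 210 CPM in WT. It rose by 0.51 on the log2 scale (SE 0.17; edgeR, adjusted p = 0.0248), close to the median of its chromosome, and was not called when centred (0.03). The fatty acid oxidation enzyme gene Hadh was at 0.11 (SE 0.17; edgeR, adjusted p = 0.713) and Papss1 at -0.68 (SE 0.48; edgeR, adjusted p = 0.358). Centred on chromosome 3, Hadh was at -0.36 (SE 0.17) and Papss1 at -1.16 (SE 0.48). Neither was called then (edgeR, adjusted p = 0.161 and 0.107). By distance between centred log2 CPM over the 4 libraries, the tested genes most like Lef1 were 9630028I04Rik (distance 0.30, log2 fold change -4.25), Tbc1d9 (0.36, -3.70) and the epoxide hydrolase gene Ephx2 (0.47, -3.69). They lie on chromosomes 17, 8 and 14. A distance over 4 libraries in 2 groups mainly measures the size of the change.

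The Lef1 promoter is shown because it lies whole inside an RCOR2 peak. The window runs from 250 bases before to 50 after the first start site, at chr3:131110047-131110346 on the plus strand, from RefSeq (GRCm38.p6). Capitals here and below mark the core of the TCF motif, CTTTG, or CAAAG where it lies on the other strand.
Lef1 promoter: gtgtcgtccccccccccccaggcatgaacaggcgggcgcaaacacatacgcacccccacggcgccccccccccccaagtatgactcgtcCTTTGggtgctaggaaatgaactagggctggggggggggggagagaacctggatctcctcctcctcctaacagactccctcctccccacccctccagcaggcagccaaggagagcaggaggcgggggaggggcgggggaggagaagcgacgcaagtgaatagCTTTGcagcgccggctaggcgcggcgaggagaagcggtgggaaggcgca
The core matches 2 times, but neither of the longer motifs searched, CTTTGAT and CTTTGTT, both of which contain it, is in this window on either strand. The core is in 53.9% of all 32851 promoter windows of this length and a longer motif in 9.33%.

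Tcf7, whose product TCF1 is the other TCF factor that mostly activates, lies at chr11:52246527-52283383. It was at 36.2 and 18.8 CPM in KO against 55.6 and 50.3 CPM in WT. Both KO libraries lay below both WT libraries, but the KO replicates lay farther apart than the nearest KO and WT libraries did. It fell by 0.92 (SE 0.30; edgeR, adjusted p = 0.0236). The call was lost after centring on chromosome 11 (-0.43, SE 0.30; edgeR, adjusted p = 0.395), by DESeq2 (adjusted p = 0.126), without KO replicate 2 (-0.55) and without WT replicate 1 (-0.82). Without KO replicate 1 it was at -1.49. All 18 tested genes within 1 Mb of Tcf7 had fold changes below 0, with a median of -0.62.

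Tcf7l1, at chr6:72626371-72789045, encodes the TCF factor that represses pluripotency genes in these cells until β-catenin relieves it. Its level was 229 and 241 CPM in KO against 132 and 93.0 CPM in WT, with both KO libraries above both WT libraries. It rose by 1.04 on the log2 scale (SE 0.18; edgeR, adjusted p = 1.06e-05), a level 2.06 times as high in KO. Leaving out WT replicate 1 gave 1.36 and leaving out WT replicate 2 gave 0.83, called both times. That rise was close to the median of chromosome 6. Centred on it, Tcf7l1 was at 0.12 (SE 0.18; edgeR, adjusted p = 0.733). Of the 21 tested genes within 1 Mb, 20 had fold changes above 0, with a median of 0.78. Its promoter, chr6:72788996-72789295 on the minus strand (RefSeq, GRCm38.p6), is shown since the weakest by fold of 4 RCOR2 peaks with summits up to 1146 bp from the start site reaches into it. It holds 1 core match.
Tcf7l1 promoter: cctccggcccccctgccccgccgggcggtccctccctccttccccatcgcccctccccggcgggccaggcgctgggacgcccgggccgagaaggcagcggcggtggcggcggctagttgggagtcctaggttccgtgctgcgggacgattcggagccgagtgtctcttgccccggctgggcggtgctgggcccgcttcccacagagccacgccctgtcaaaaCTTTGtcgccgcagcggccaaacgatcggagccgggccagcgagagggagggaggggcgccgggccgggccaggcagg

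Tcf7l2, which encodes TCF4 and lies at chr19:55741797-55933659, was the member whose groups lay closest together. It was at 106 and 80.6 CPM in KO against 78.4 and 96.0 CPM in WT, and the groups overlapped. The log2 fold change was 0.12 (SE 0.21, 95% interval -0.31 to 0.54; edgeR, adjusted p = 0.777). Chromosome 19, where it lies, had a median of -0.03. The promoter of its second start site is shown because it holds a longer TCF motif, CTTTGTT, just before the start site. This was 1 of 3 such places in the promoter windows of the members, which Notum and Znrf3 lack. The window is chr19:55895071-55895370 on the plus strand (RefSeq, GRCm38.p6), and the nearest RCOR2 summit lay 81809 bp from that start site.
Tcf7l2 second promoter: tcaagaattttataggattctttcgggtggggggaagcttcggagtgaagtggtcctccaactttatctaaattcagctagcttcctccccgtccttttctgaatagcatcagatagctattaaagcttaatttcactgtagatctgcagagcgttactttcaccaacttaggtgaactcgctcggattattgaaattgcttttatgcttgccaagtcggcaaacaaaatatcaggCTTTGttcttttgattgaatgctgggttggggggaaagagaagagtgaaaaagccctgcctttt

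**Figure D2:**
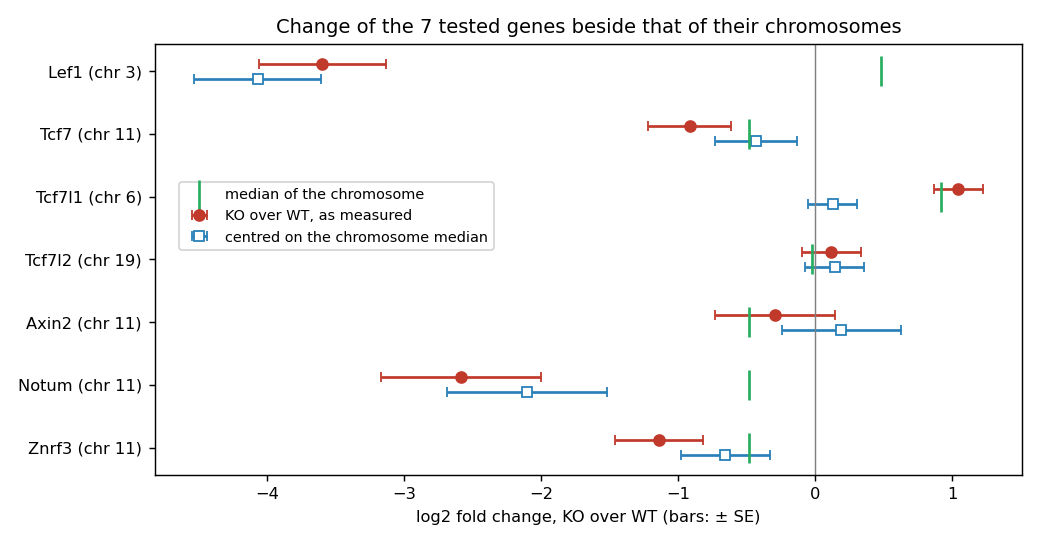
Log2 fold change of KO over WT (horizontal axis) for the 7 tested genes, as measured (filled circles) and centred on the median of the chromosome (open squares), with bars of 1 SE and ticks at the chromosome medians. Tcf7l1 at 1.04 sits beside the chromosome 6 median of 0.92, while Lef1 and Notum lie far from the medians of theirs.

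Notum had the largest change among the 3 feedback genes that could be tested. It lies at chr11:120653788-120661193 and encodes a secreted enzyme that removes the lipid from WNT ligands and so inactivates them. It was counted 14 and 3 times in KO and 51 and 26 times in WT, a level of 4.83 and 1.57 CPM in KO against 21.5 and 19.8 CPM in WT. The groups did not overlap. Notum fell by 2.59 (SE 0.58; edgeR, adjusted p = 0.000711), with a level 6.00 times as high in WT. It was still called lower after centring on chromosome 11 (-2.10, SE 0.58; edgeR, adjusted p = 0.0094). Leaving out KO replicate 1 gave -3.67 and leaving out KO replicate 2 gave -2.09. The adjusted p stayed between 0.000112 and 0.0237 under all alternatives tried with edgeR, DESeq2 or limma-voom.

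Znrf3 and Rnf43 encode related membrane ubiquitin ligases that remove Frizzled receptors from the cell surface, and their counts differed between KO and WT in opposite directions. Znrf3 lies at chr11:5276329-5444847 and Rnf43 at chr11:87663087-87735539. Znrf3 was at 25.9 and 16.7 CPM in KO against 39.2 and 57.9 CPM in WT, with no overlap. It fell by 1.14 (SE 0.32; edgeR, adjusted p = 0.00757). The call was lost after centring on chromosome 11 (-0.66, SE 0.32; edgeR, adjusted p = 0.188), narrowly by DESeq2 (adjusted p = 0.0503), without KO replicate 2 (-0.89) and without WT replicate 2 (-0.86). Rnf43 had too few counts in all libraries but KO replicate 1 to pass the filter on low counts. It was counted 31 and 7 times in KO and 1 and 2 times in WT, so that both KO libraries lay above both WT libraries, although chromosome 11 was shifted down. The ratio of summed counts per depth, KO over WT, was 9.40 with an exact 95% counting interval of 2.98 to 47.6. On the log2 scale this ratio was 3.23, and it was 2.11 without KO replicate 1 and 4.19 without WT replicate 2. With no filter on low counts Rnf43 was called higher at 3.05 (SE 1.00; edgeR, adjusted p = 0.0262). The difference between both genes' changes was not tested.

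Axin2, the inducible scaffold of the destruction complex and the most widely used readout of β-catenin activity, did not separate KO from WT. It lies at chr11:108917828-108950783. It was at 11.4 and 22.5 CPM in KO against 13.9 and 28.2 CPM in WT, so that the replicates of a group differed more than the groups did. The log2 fold change was -0.29 (SE 0.44, 95% interval -1.15 to 0.56; edgeR, adjusted p = 0.713), and 0.19 centred on chromosome 11. Its promoter is chr11:108920099-108920398 on the plus strand (RefSeq, GRCm38.p6). It is shown because an RCOR2 summit lay 21 bp from the start site, the closest among the 8 members with promoter windows. It holds no core match.
Axin2 promoter: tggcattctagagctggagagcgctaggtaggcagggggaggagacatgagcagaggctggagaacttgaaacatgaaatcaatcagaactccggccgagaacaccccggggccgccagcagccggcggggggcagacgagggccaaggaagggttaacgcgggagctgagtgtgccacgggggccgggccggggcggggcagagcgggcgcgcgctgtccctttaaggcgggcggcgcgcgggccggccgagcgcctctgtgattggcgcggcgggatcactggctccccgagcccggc

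Nkd1 (chr8:88521342-88594887) and Sp5 (chr2:70474923-70477726) were near the limit of detection. Nkd1, whose product binds Dishevelled and inhibits signalling from the receptor, was counted 8 and 2 times in KO and 1 and 0 times in WT. The ratio of summed counts was 7.42 (exact 95% counting interval 1.06 to 322), and with no filter it was not called (edgeR, adjusted p = 0.549). Sp5, a zinc finger factor that represses other targets of the pathway, was counted 4 and 8 times in KO and 11 and 2 times in WT. Its ratio was 0.68 (0.29 to 1.63), and the groups overlapped. A floor of 3 counts is worth 1.02 to 1.52 CPM in the KO libraries and 1.27 to 2.33 CPM in the WT libraries, so changes of Nkd1 or Sp5 of moderate size were not detectable at this depth. The Sp5 promoter is shown because it held both longer motifs, which no other member's windows did: CTTTGAT, and CTTTGTT on the other strand. They are among 5 core matches in chr2:70474673-70474972 on the plus strand (RefSeq, GRCm38.p6).
Sp5 promoter: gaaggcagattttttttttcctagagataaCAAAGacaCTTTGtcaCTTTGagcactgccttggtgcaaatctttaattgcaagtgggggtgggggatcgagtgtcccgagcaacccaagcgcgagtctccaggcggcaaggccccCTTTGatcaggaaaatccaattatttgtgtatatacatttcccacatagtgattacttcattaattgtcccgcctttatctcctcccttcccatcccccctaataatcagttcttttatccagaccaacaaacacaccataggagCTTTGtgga
Of the 8 members with promoter windows 2 held a longer motif, against 10.6% of all genes with a window.

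RCOR2 peaks lay within 20 kb of 9 of the 10 members. This share was near the background, since 92.8% of the tested genes and 74.3% of all 25011 placed genes had a peak that close. A peak that close was present for 93.4% of the genes called higher, 93.7% of those called lower and 92.7% of those not called. With a peak near so many genes, presence could hardly differ between these groups. Their median number of peaks per 100 kb was 5.34 for genes called higher, 4.69 for those called lower and 4.36 for those not called. That difference was not tested. Nkd1 had 0 peaks within 20 kb of its interval and 1 within 50 kb. Its nearest summit was 92029 bp from its start site. Of the 8 members with promoter windows 5 had a peak over one, namely Lef1, Tcf7, Tcf7l1, Tcf7l2 and Axin2, against 52.4% of the tested genes with a window and 24.7% of all genes with one. With peaks of at least 5-fold enrichment, 5 members had one within 20 kb: Lef1, Tcf7l1, Tcf7l2, Notum and Znrf3. Such a peak lay within 20 kb of 50.2% of all placed genes and 66.5% of the tested genes. The fold and the −log10 q are the authors' values for each peak, and the list's medians are 4.38 and 5.08.

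**Figure D3:**
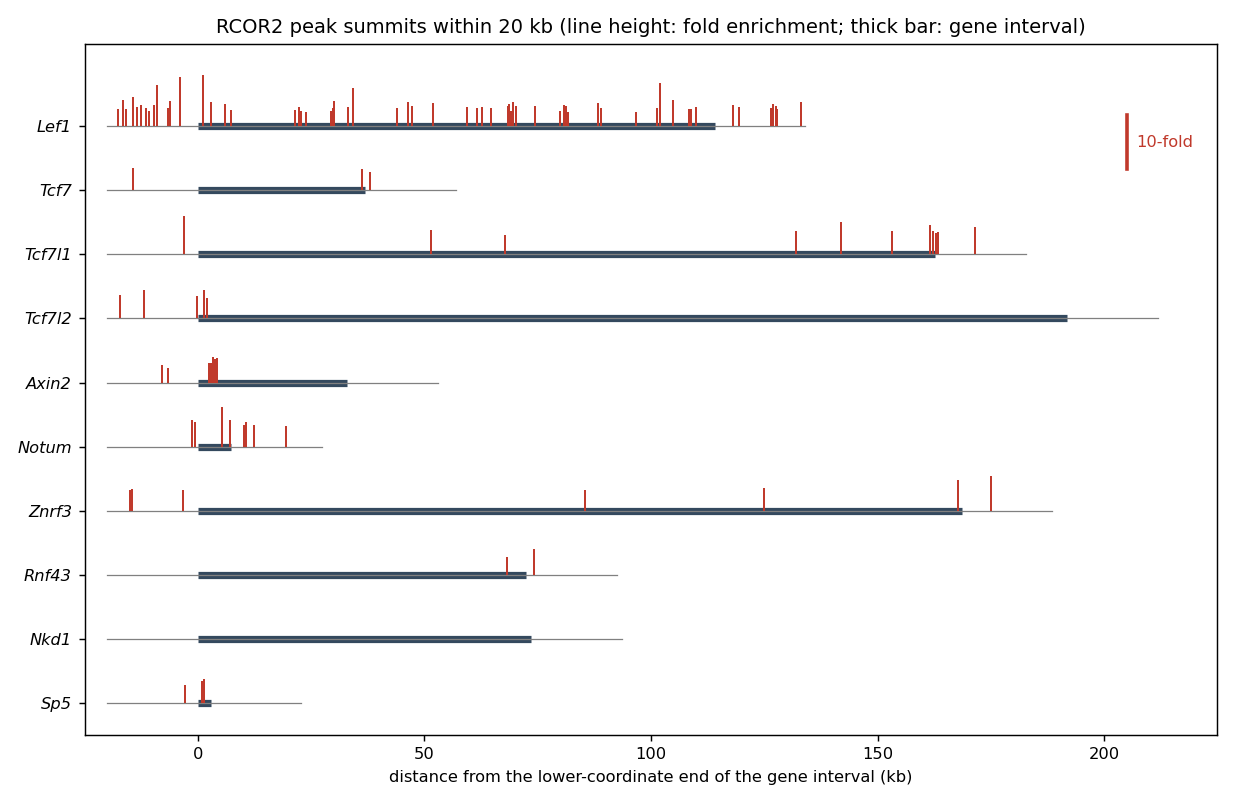
RCOR2 peak summits within 20 kb of each gene interval (thick bar), with the horizontal axis in kb from the end of lower coordinate and line height as fold enrichment. Lef1 holds 60 of the 106 peaks and Nkd1 has 0.

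Lef1 stood out by the number of its peaks. It had 60 within 20 kb, of which 40 lay inside the gene, more than any placed gene but 1. Per 100 kb this was 38.9 peaks, which ranked 32 of the 25011 placed genes, against a median of 4.49 over the tested genes. The strongest covered the first start sites, on chromosome 3 from 131109487 to 131112822, with a fold of 9.47 and a −log10 q of 26.8, above 97.5% of all peaks. Other strong peaks lay 4027 bp before the gene (131104421 to 131108038, 9.16-fold), 8989 bp before it (131100765 to 131102860, 7.77-fold) and inside it (131211858 to 131212468, 8.09-fold). Of the 60 peaks, 4 were at least 1 kb wide, against 3.87% of the whole list.

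The dense peaks were not limited to Lef1. From 500 kb before to 500 kb after its start the list held 230 peaks, and every 100 kb bin of that stretch held 8 to 45, where a bin with any peak held a median of 2. Of the 20 bins in the genome with at least 30 peaks, 13 were on chromosome 3, which held 6.97% of all peaks. The peak list was called on merged libraries, which control it was set against is not stated, and read depth along these stretches was not analysed here. The part of copy number or of control depth in the peak counts, those at Lef1 included, was not tested.

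**Figure D4:**
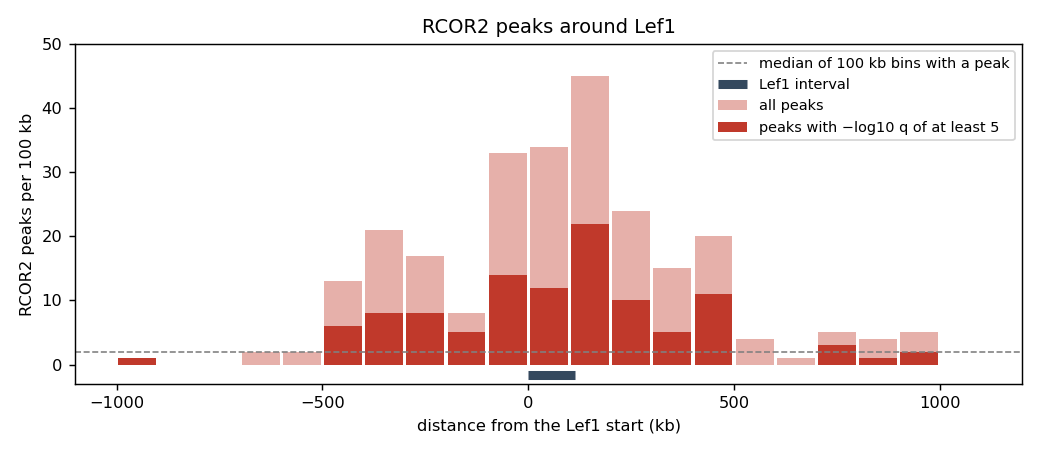
RCOR2 peaks per 100 kb bin (vertical axis) by distance from the Lef1 start (horizontal axis, kb), for all peaks and for those with a −log10 q of at least 5, with the Lef1 interval as a bar below and the median of bins that hold a peak as a dashed line. The 10 bins within 500 kb hold 8 to 45 peaks.

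The other members had fewer peaks. Notum, with the shortest interval after Sp5, had 8 within 20 kb, or 16.9 per 100 kb, and the strongest lay inside the gene (chromosome 11, 120658870 to 120659168) with a fold of 7.35 and a −log10 q of 14.4. Another of 5.07-fold lay 298 bp from an end of the interval. Tcf7l1 had 11 peaks, the strongest on chromosome 6 from 72622945 to 72623646, 3061 bp beyond its 3′ end, with a fold of 7.13. Of its others, 1 of 5.52-fold lay 1146 bp inside the start site. Znrf3 had 7 peaks, and its strongest (chromosome 11, 5451155 to 5451614, 6.59-fold) lay 6519 bp outside the interval, with one of 5.75-fold 731 bp inside its end. Axin2 had 7 peaks, of which 5 stood in a row inside the gene from 21 to 1720 bp past the start site, all between 3.69-fold and 4.84-fold. Tcf7l2 had 5 peaks of up to 5.30-fold, one of them 1278 bp past its first start site, and a weaker one lay 279 bp before it. Tcf7 and Sp5 had 3 each. At Tcf7 they reached 4.15-fold, with 1 summit 204 bp past a start site. At Sp5 they reached 4.61-fold, and the widest at Sp5 (chromosome 2, 70476000 to 70477000) covered part of that short gene. Rnf43 had 2, both far from its start sites, the nearer one 31297 bp away.

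Among the remaining genes of the pathway, a share not far below that of all tested genes passed the test. Over 7 further lists 65 of 121 genes had enough counts to be tested, of which 5 rose and 5 fell (edgeR, adjusted p under 0.05), or 15.4%, against 19.7% of all tested genes. Their median log2 fold change was -0.11, and KO and WT did not overlap in 36 of them, or 55.4%, near the 56.9% of all tested genes. None of the 19 WNT ligand genes could be tested, the highest count of any of them in a library being 13. Of 10 receptor and secretion genes 0 rose and 0 fell by edgeR or DESeq2, and 2 had an unadjusted p under 0.05, Wls and Ror2, named after their values were seen. The receptor gene Ror2 was at 22.8 and 17.8 CPM in KO against 11.0 and 4.57 CPM in WT (edgeR, adjusted p = 0.0501), and was called higher by edgeR after centring (log2 fold change 1.44), with RLE scaling (1.31), with no filter (1.32), with a replicate block (1.39) and without WT replicate 1 (2.16). Wls, which carries WNT ligands to the cell surface, was called higher without WT replicate 1 (2.35).

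Few genes of β-catenin, its cofactors and the destruction complex passed the edgeR test, which 19.7% of all tested genes passed. Ctnnb1, which encodes β-catenin, was at 229 and 193 CPM in KO against 208 and 312 CPM in WT, so that the groups overlapped. It was at -0.29 on the log2 scale (SE 0.17; edgeR, adjusted p = 0.254), at 0.02 without WT replicate 2, and was called lower at -0.55 without WT replicate 1 (edgeR, adjusted p = 0.0216). The kinase gene Gsk3b was at 0.15 (95% interval -0.20 to 0.51) and Gsk3a at -0.12 (-0.90 to 0.66). Axin1 was at 0.11 (-0.53 to 0.76), the scaffold gene Apc at -0.15 (-0.58 to 0.29) and the corepressor gene Tle5 at 0.35 (-0.20 to 0.89). Of 19 tested genes of the complex and its relay 2 were called, both lower. Frat1, which encodes a GSK3-binding protein, was at 4.83 and 0.52 CPM in KO against 6.32 and 26.7 CPM in WT, with wide gaps between the replicates of each group. It fell by 2.40 (SE 0.71; edgeR, adjusted p = 0.0106). It was at -4.74 without KO replicate 1, and was not called by DESeq2 or without KO replicate 2 (-1.68) or WT replicate 2 (-1.10). Dvl2, a Dishevelled gene on chromosome 11, fell by 0.73 (SE 0.25; edgeR, adjusted p = 0.0326) and was not called by DESeq2, with no filter (-0.70), when centred (-0.24) or without KO replicate 1 (-0.77), KO replicate 2 (-0.70) or WT replicate 2 (-0.51). Of 18 tested genes of β-catenin and its nuclear cofactors 1 was called, the corepressor gene Ctbp2, which fell by 0.75 (SE 0.18; edgeR, adjusted p = 0.00183). Its call was lost without KO replicate 2 (-0.65).

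Secreted regulators of the SFRP family, which bind WNT ligands, went both ways. Sfrp1 was at 715 and 641 CPM in KO against 255 and 251 CPM in WT, a rise of 1.42 (SE 0.15; edgeR, adjusted p = 7.45e-11) that was still called when centred on chromosome 8 (0.91). Sfrp2 fell: it was counted 1 and 2 times in KO and 11 and 18 times in WT, a ratio of summed counts of 0.077 (exact 95% counting interval 0.015 to 0.25; edgeR, adjusted p = 0.0037). That call was lost without KO replicate 1 (-2.98 on the log2 scale) or WT replicate 2 (-2.77). Sfrp4 was too low to pass the filter on low counts and was named after its values were seen. It was counted 0 and 0 times in KO and 9 and 9 times in WT. By the floor of 3 counts per library this was at least 4.26-fold lower in KO. With no filter Sfrp4 was called lower at -6.47 (SE 2.04, edgeR, adjusted p = 0.0189), a size that rests on 0 counts in KO.

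Targets of WNT signalling in development and proliferation showed 1 rise and 1 fall among 6 tested genes. The T-box factor gene Eomes was counted 50 and 43 times in KO and 3 and 4 times in WT, a rise of 3.30 (SE 0.66; edgeR, adjusted p = 0.000132) that was 2.69 without WT replicate 1 and 3.91 without WT replicate 2. The trophoblast markers were also higher in both KO libraries, as given above, and their part in the Eomes counts was not tested. Mycn fell by 0.65 (SE 0.22; edgeR, adjusted p = 0.0259), and was not called by DESeq2, with no filter (-0.63), when centred (-0.61), or without KO replicate 1 (-0.71), KO replicate 2 (-0.60) or WT replicate 2 (-0.54). Of the 7 pluripotency genes known as targets of TCF7L1 repression in mouse embryonic stem cells, 3 were called, all higher. When centred 2 rose and 2 fell. Of all tested genes 10.4% rose and 9.3% fell by edgeR, and 6.28% rose and 6.67% fell when centred. Tbx3 was at 587 and 428 CPM in KO against 175 and 222 CPM in WT (log2 fold change 1.37, SE 0.16; edgeR, adjusted p = 2.92e-09). Tfcp2l1 was at 403 and 446 CPM in KO against 179 and 290 CPM in WT (0.87, SE 0.17; edgeR, adjusted p = 6.95e-05), and at 0.57 without WT replicate 1 and 1.24 without WT replicate 2. Nanog, on chromosome 6, was called higher at 0.48 (SE 0.15; edgeR, adjusted p = 0.0127). When centred it was called lower instead, at -0.44 (edgeR, adjusted p = 0.0362). Its call as measured was lost without KO replicate 1 (0.46) or KO replicate 2 (0.51).

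**Figure D5:**
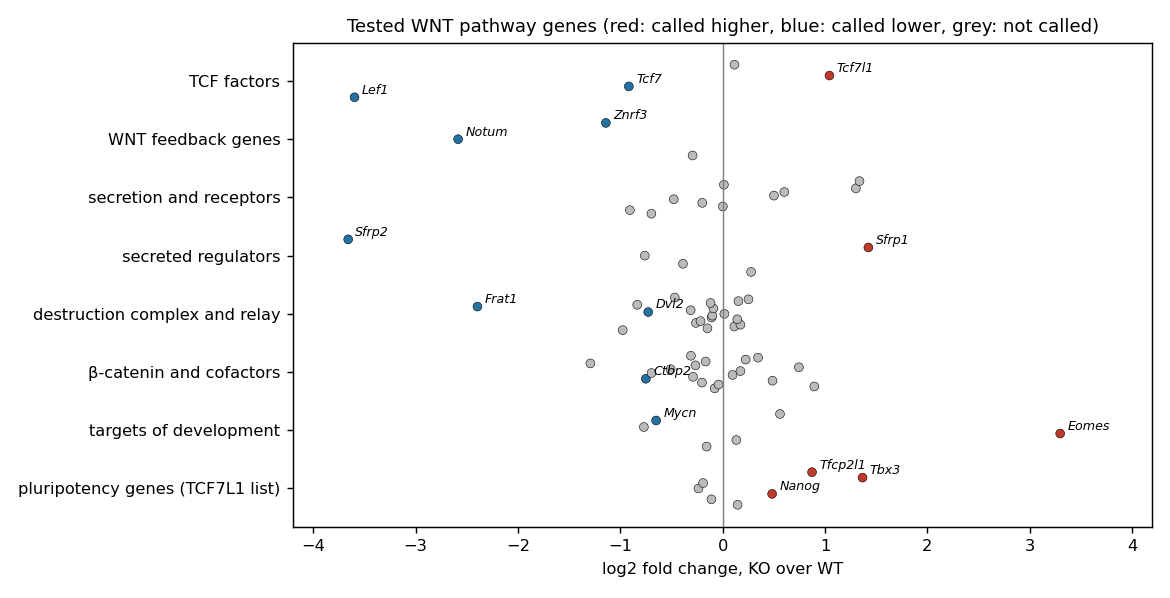
Log2 fold change of KO over WT (horizontal axis) of each tested gene in 8 groups of the WNT pathway (rows, with points spread vertically so that they can be seen), with genes called at an adjusted p under 0.05 named. Lef1 and Sfrp2 lie lowest and Eomes highest, while most genes of the destruction complex and the cofactors lie near 0.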

How the data were processed

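RNA-seq values are whole-number counts of reads for each gene symbol, deposited by the authors without normalization, and each column was the same as the counts deposited for its own library. Per the submitters' processing notes, Trimmomatic 0.36, STAR 2.5.2b, SAMtools 1.8, Subread, featureCounts, Bowtie2 2.3.4.1, MACS2 2.1.1.20160309, bedtools 2.25.0 and HOMER were used, with the builds GRCm38 and mm10 and no step named for each. Use of strand and of molecular identifiers when counting was not given in these sources. Peak lists hold, as deposited by the authors, a fold enrichment (a ratio over the control at the summit) and a −log10 q per peak; peak names show merged libraries.

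Genes were filtered with filterByExpr (10241 of 25131 rows kept), scaled by TMM and tested with edgeR 4.0.16 in R 4.3.3 (quasi-likelihood test, two-sided, Benjamini-Hochberg over all tested genes, threshold 0.05). The SE is the fold change over the root of F, and 95% intervals are 1.96 SE. DESeq2 1.42.0 and limma 3.58.1 (voom) were alternatives, as were other scalings, no filter, a replicate block, leaving out each library, and centring on chromosome medians as an offset. The edgeR fit was tested on simulated data. Count ratios have exact counting intervals, which cover counting error only. Replicates were not duplicates of one library: chi-square per degree of freedom between them was 4.22 in KO and 4.78 in WT. Gene intervals came from RefSeq GRCm38.p6 (25027 rows placed), and peak positions are 1-based. A peak is near a gene when its summit lies within 20 kb of the gene interval. Members and lists were chosen with earlier results of these data known. Genes named besides the members were 6 fixed ones (Ctnnb1, Gsk3a, Gsk3b, Axin1, Apc, Tle5), Rcor2, up to 5 called genes per list by size of change, and the 3 nearest in pattern to Lef1. Outside this rule, and after their values were seen, the genes near Lef1, Ror2, Wls, Sfrp4, single markers and chromosome Y genes were named. TINC peak lists were not used.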

Additional observations from a re-analysis of the deposited data

How the results depend on the processing

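Lef1 and Notum kept their direction and their call under all 11 alternatives to the edgeR fit (4 of which leave a group with 1 library, assumed to vary like the other group), and Tcf7l1 under all but centring on chromosome medians. With chromosomes centred 0 members were called higher and 2 lower, 643 of all tested genes were called higher, Tcf7l1 was at 0.12, Tcf7 at -0.43, Znrf3 at -0.66, and Axin2 changed sign to 0.19. By DESeq2 2 members were called lower, 650 genes were called higher and 506 lower, and 2 genes of the further WNT lists were called lower, with Tcf7 at -0.92 and Znrf3 at -1.16. With no filter on low counts 2 members were called higher. Leaving out 1 library at a time gave 2 to 4 members called lower, 616 to 948 genes called higher and 495 to 790 lower, and 2 to 7 genes of the further lists called lower. Log2 fold changes then ran from -1.49 to -0.55 for Tcf7, from -1.51 to -0.86 for Znrf3, from -0.84 to 0.25 for Axin2 and from -0.10 to 0.29 for Tcf7l2, the last 2 changing sign without being called. The log2 ratio of summed counts of Sp5, -0.55 over all libraries, then ran from -1.39 to 0.65 and also changed sign. Nkd1 has no such ratio without WT replicate 1, since the other WT library holds 0 counts. With a fold of at least 5, 5 members had an RCOR2 peak within 20 kb, and with the core CTTTG alone 4 members held a motif. The fit with the replicate number as a block called 1 member higher and 4 lower, as without it, and 6 genes of the further lists higher; deviations of KO and WT libraries of the same number correlated at -0.05 over genes, so the numbers were not taken to pair the libraries. The causes of these differences were not tested. Depth limits Rnf43, Nkd1 and Sp5, with at most 31, 8 and 11 counts in a library.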
